A study of Mus musculus with 2 samples.

Results

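A small group of ear cartilage cells that scored highest for Gdf5, Scara3, Mpped2 and Atp6v0a4 was examined in control and inflamed mouse skin. It held 85 of the 4624 cells that fell into 5 cartilage sets, and of 23878 cells kept in all, with 50 cells in the control library and 35 in the ACD library. The measurement was droplet scRNA-seq, which counts unique molecular identifiers (UMIs), each standing for 1 captured mRNA molecule tagged at its 3' end. Both libraries were made from ear skin of ICR mice aged 7 to 8 weeks, which the methods describe as male and which carried no engineered allele according to the labels. In the ACD group, allergic contact dermatitis was set up by painting 1.0% DNFB (2,4-dinitrofluorobenzene, a hapten) on the dorsal skin and 0.2% DNFB on the ears 6 days later, and ear skin was taken 60 hr after the second dose. The control group was healthy ear skin. Each group was 1 library, and the labels do not give the number of ears or mice in it, so condition and library cannot be told apart and ACD could not be tested against control.

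The membership rule used measured values. Cells with no UMI of Ptprc (CD45, the pan-leukocyte phosphatase) or Pdgfra (a fibroblast receptor) and at least 3 UMIs summed over the cartilage genes Comp, Col9a1, Hapln1 and Cilp2 were scored for 5 sets of 4 genes. A score was the mean of ln(1 + UMIs per 10000 UMIs of the cell) over the 4 genes. The sets were Gdf5/Scara3 (G: Gdf5, Scara3, Mpped2, Atp6v0a4), Cytl1/Wif1 (P: Msmp, Trf, Cytl1, Wif1), Angptl7/Cilp2 (A: Angptl7, Cilp2, Cyp26a1, Itgbl1), Ucma/Smoc1 (U: Ucma, Smoc1, Fbln7, Prss23) and Acan/Col9a3 (M: Acan, Col9a3, Corin, Dgat2). A cell joined the set with its highest score, if that score was at least 0.5. The 25 genes of the rule were left out of every count of genes.

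Gdf5 encodes a secreted ligand of the BMP family that acts through type I and type II serine/threonine kinase receptors and is best known from developing joints, where its expression marks the interzone that gives rise to joint tissues. The mouse ear pinna is stiffened by a plate of elastic cartilage, in which SOX9 drives expression of collagen types II, IX and XI and of aggrecan, elastin is laid down between the cells, and a fibrous perichondrium covers the surface. Scara3 encodes a scavenger receptor-like protein linked to protection from oxidative stress. Atp6v0a4 encodes a subunit of the vacuolar proton pump, and Mpped2 encodes a metallophosphoesterase.

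The cells sat at the edge of a continuous cloud rather than apart from it. Their G score had a median of 1.46 (range 0.71 to 2.31) in control and 1.67 (0.73 to 2.52) in ACD. The lead over the next best score had a median of 0.23 in control and 0.26 in ACD, and it was under 0.1 in 17 of 50 and 11 of 35 cells. The next best set was Cytl1/Wif1 in 47 of 50 control and 32 of 35 ACD cells. Among Cytl1/Wif1 cells, 60.4% in control and 63.9% in ACD also had a G score of at least 0.5. The 5 cells with the narrowest lead had leads of 0.00089 to 0.0073 in control and 0.0045 to 0.039 in ACD. Of the cells just outside, 16 in control and 17 in ACD fell short of membership by at most 0.1.

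**Figure D1:**
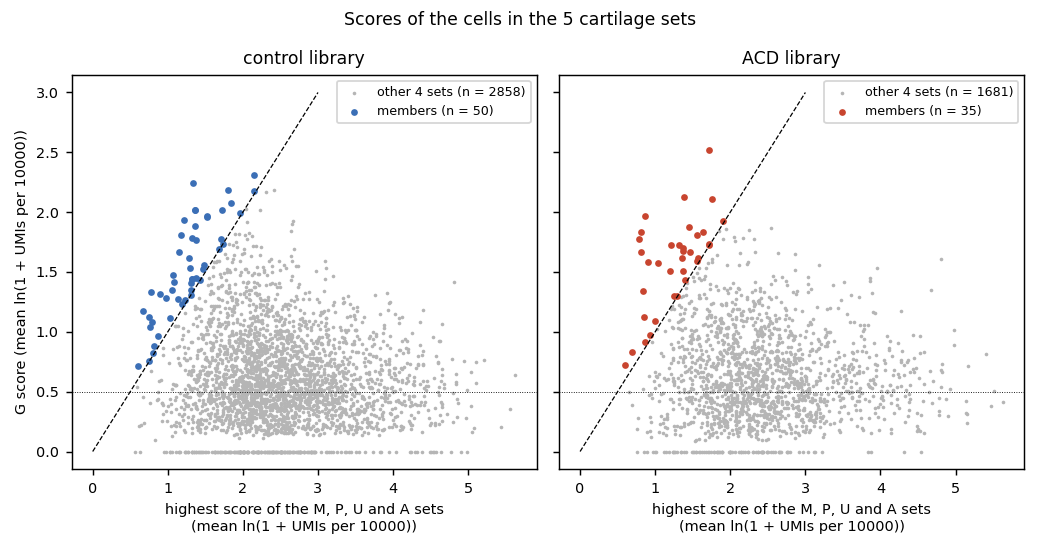
Scatter plot of the G score against the highest of the 4 other set scores for every cell of the 5 cartilage sets, with control on the left and ACD on the right. Colored points are the 50 control and 35 ACD Gdf5/Scara3 cells, gray points are the other 4 sets, the dashed line marks equal scores and the dotted line marks a score of 0.5. The colored points lie along the dashed line, at the border of the gray cloud.

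Sequencing depth moved with membership. The Gdf5/Scara3 cells had a median of 5182.5 UMIs in control and 4917 in ACD, against 7431 and 8944 in Cytl1/Wif1 cells. When each cell was first thinned to 2000 UMIs and scored again, 36 control and 30 ACD cells qualified, and 15 of the 50 and 12 of the 35 original cells were among them. The assignment of a single cell was therefore unstable at this depth, and the values below describe the cells chosen at full depth. The control and ACD libraries shared 50 barcodes (47 among kept cells), and none of the 85 cells carried one of them. Scrublet, a doublet caller, marked 4.67% of kept control and 3.29% of kept ACD cells but 0 of the 85.

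The cells made up 0.409% of kept control cells (50 of 12213, exact 95% Clopper-Pearson interval 0.304% to 0.539%) and 0.3% of kept ACD cells (35 of 11665, 0.209% to 0.417%). The log2 ratio of these shares was -0.45, with an interval of -1.11 to 0.20 that includes no change. As a share of the 5 cartilage sets they were 1.72% in control (1.28% to 2.26%) and 2.04% in ACD (1.42% to 2.83%), with a log2 ratio of 0.25 (-0.42 to 0.90). A difference in abundance was not detectable at this depth on either denominator. These intervals, and all those below, cover counting error only. More immune cells enter the first denominator in ACD skin, with 485 control and 2331 ACD cells positive for both Ptprc and Cd3e.

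Of the 4 genes that chose the cells, Scara3 was found in each of the 85. Scara3 (ENSMUSG00000034463, chr14:65919394-65953935, minus strand, GRCm38) ranged from 2.46 through a median of 13.4 to 32.2 UMIs per 10000 in single control cells and from 2.21 through 15.7 to 38.7 in ACD. Gdf5 (ENSMUSG00000038259, chr2:155941023-155945367, minus strand) ranged from 0 through 4.79 to 26.4 in control and from 0 through 4.58 to 17.2 in ACD, with UMIs in 45 of 50 and 33 of 35 cells. The single-cell values of control and ACD overlapped over most of their range for both genes. Mpped2 (chr2:106693269-106868356, plus strand) was found in 38 of 50 and 24 of 35 cells, and Atp6v0a4 (chr6:38048483-38124586, minus strand) in 26 of 50 and 21 of 35. All 4 genes were present in 16 control and 13 ACD cells, and no cell had fewer than 2 of them.

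Levels over all cells of a set are given as counts per 1000000 UMIs (CPM), which do not scale with transcript length because only the 3' end is counted. Gdf5 stood at 611 (exact 95% Poisson interval 522 to 710) in control and 526 (431 to 636) in ACD, and the log2 ratio of ACD over control was -0.21. Scara3 stood at 1377 (1242 to 1522) and 1454 (1292 to 1630), Mpped2 at 260 (204 to 328) and 392 (310 to 488), and Atp6v0a4 at 192 (143 to 250) and 258 (193 to 338). In the much larger Cytl1/Wif1 set these genes stood lower, as the rule requires. The cells were few, so they held 4.31% of all control and 3.17% of all ACD Gdf5 UMIs in kept cells, while the other 4 cartilage sets held 46.2% and 37.5%. A further 37.4% and 39.7% lay in Pdgfra-positive cells with at least 3 cartilage UMIs, which the rule leaves out. As a measure of free RNA, Gdf5 UMIs were seen in 2.68% of control and 2.45% (ACD) of the cells positive for Ptprc and Cd3e (median 4317 and 6505 UMIs), against 90% and 94.3% of the Gdf5/Scara3 cells. After thinning to 2000 UMIs, which left out 1 control cell and no ACD cell, these shares of Gdf5/Scara3 cells were 57.1% and 60%, and 14.6% and 13.8% of the other cartilage cells had a Gdf5 UMI.

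Genes of the other 4 sets were lower or patchy in these cells. Cytl1, a secreted cartilage protein, had a median of 25.3 UMIs per 10000 in control and 24.4 in ACD, and Wif1, a secreted Wnt inhibitor, 4.48 and 8.37. Ucma, a matrix protein of cartilage, had medians of 1.74 and 0, and Acan, which encodes the proteoglycan aggrecan, 2.39 and 2.92. Summed, Ucma stood at 466 CPM against 459 in the other 4 sets in control, and at 119 against 342 in ACD. Cyp26a1 was above the other sets by log2 differences of 0.92 and 0.61, and by 0.49 and -0.04 without its top cell. Angptl7, Cyp26a1, Cilp2, Itgbl1, Msmp, Trf, Smoc1, Fbln7, Prss23, Col9a3, Corin and Dgat2 had medians of 0 in both libraries. Of the cartilage genes the rule sums, Hapln1, a link protein of aggrecan, had medians of 2.67 and 3.22, Comp 5.25 and 2.90, and Col9a1 1.79 and 0.

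The cartilage label was checked against 10 chondrocyte markers that the rule did not use. Sox9, the master transcription factor of chondrocytes, had UMIs in 49 of 50 control and 30 of 35 ACD cells, at 831 (727 to 946) and 868 (744 to 1007) CPM, and Chad, a matrix protein that binds collagen, in 47 of 50 and 34 of 35. Col11a1 was found in 40 of 50 and 27 of 35 cells. Col2a1, which encodes the main collagen of cartilage, was nearly absent, with 7 UMIs in 6 control cells and 7 UMIs in 2 ACD cells. Matn1 had 0 UMIs, which allows up to 10.8 CPM in control and 14.9 in ACD (3 UMIs over the group). The 10 markers summed to 2967 CPM in control and 3970 in ACD, below the 5276 and 6628 of the other 4 sets. Of 9 markers counted against the other 4 sets, 5 were at least 2-fold lower in both libraries and 0 higher. Over all 12095 genes, 0.868% were lower and 0.273% higher. The median log2 difference of the markers was -1.19 in control and -1.60 in ACD. Matn3 had 5 and 1 UMIs, and Matn4 5 and 7. The cells thus carried Sox9, Chad and Col11a1, but Col2a1 and several other chondrocyte markers were low.

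Compared with the 2858 control and 1681 ACD cells of the other cartilage sets, 33 of 12095 genes (0.273%) were at least 2-fold higher in both libraries and 105 (0.868%) at least 2-fold lower, with 10 CPM added on each side. Most of the compared cells were Cytl1/Wif1 cells (2197 and 1251). Against these alone, 30 of the 33 and 83 of the 105 were past 2-fold, but against Angptl7/Cilp2 cells only 16 and 33 were. Differences below are from all other sets together unless a set is named. Because the rule chose the cells by genes that vary together with others, this contrast is a description, and genes are named by their smaller difference over the 2 libraries. Without the Gdf5/Scara3 cell that held the most UMIs of each gene in each library, 15 of the 33 stayed past 2-fold. All 105 lower genes stayed too, but this step takes UMIs only from the Gdf5/Scara3 cells. It could therefore hardly undo a lower call.

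Scara5, which encodes a ferritin receptor of the same scavenger receptor class as Scara3, stood at 152 (109 to 205) and 104 (64.5 to 159) against 15.8 and 20.4, with UMIs in 22 of 50 and 13 of 35 cells. Tfrc, the transferrin receptor, stood at 282 (223 to 352) and 377 (297 to 472) against 97.7 and 77.9, and 1 ACD cell held 35.5% of its ACD UMIs. The log2 differences were 2.65 and 1.91 for Scara5 and 1.44 and 2.14 for Tfrc.

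Among secreted factors, Fgf18, a growth factor for chondrocytes, stood at 181 (134 to 238) and 164 (113 to 230) against 56.0 and 55.6. Fgf18 was as high in Angptl7/Cilp2 cells, and the log2 difference from that set was -0.15 in control and -0.29 in ACD, against 2.52 and 2.25 over Cytl1/Wif1 cells. Fibin, a secreted protein, showed the same arrangement, at 340 and 382 with differences of 0.11 and 0.58 from Angptl7/Cilp2 cells and 1.86 and 2.10 from Cytl1/Wif1 cells. Ltbp2, a microfibril protein of the latent TGF-β binding family, differed by 1.75 and 2.25 from all other sets together and by 0.38 and 0.93 from Angptl7/Cilp2 cells. Clu, which encodes the extracellular chaperone clusterin, was found in every cell at 3382 (3169 to 3606) and 3558 (3302 to 3828), with log2 differences of 1.36 and 1.03.

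Other named genes rested on few UMIs. Tesc was found in 8 control and 5 ACD cells, Smagp in 7 and 6, Spns2 in 9 and 5, Thsd4 in 7 and 5, Sema3e in 6 and 4, Kctd12 in 14 and 9, and Pdlim3 in 10 and 4. Vcan (log2 differences 2.14 and 1.73) and Col14a1 (1.55 and 1.70) are genes of fibrous connective tissue. Without their top cells, Vcan dropped to 0.83 and 1.09 and Col14a1 to 0.34 and 0.83. The 6 fibroblast markers summed to 16990 CPM in control and 14926 in ACD, against 14492 and 11610 in the other cartilage sets. Pi16 had no UMI, and Pdgfra had none because the rule excludes it.

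On the low side, Col2a1 stood at 25.3 (10.2 to 52.1) and 34.7 (14 to 71.6) CPM against 485 and 595, a log2 difference of -3.81 and -3.76. Angptl7/Cilp2 cells were as low, at 36.6 and 35.7, while Cytl1/Wif1 cells stood at 600 and 677. Eln, which encodes elastin, stood at 260 (204 to 328) and 258 (193 to 338) against 1155 and 1910, with differences of -2.11 and -2.84, and 1 ACD cell held 57.7% of its ACD UMIs. Fxyd3, a regulator of the sodium pump, stood at 350 and 392 against 1648 and 1913. Lect1, an angiogenesis inhibitor of cartilage also called chondromodulin, stood at 79.5 in control and 4.96 in ACD (22 and 1 UMIs) against 391 and 366. Its relative Tnmd had 3 and 1 UMIs. 1500015O10Rik, also known as Ecrg4, differed by -2.31 and -2.50, Mfi2, which encodes the iron-binding membrane protein melanotransferrin, by -2.89 and -2.67, and Thbs4 by -2.11 and -3.20. Luzp2 had no UMI in these cells, so the other cartilage cells were at least 5.30-fold higher in control and at least 2.78-fold higher in ACD, taking 3 UMIs over the group. Hbb-bt, a hemoglobin gene, was also lower (1 and 5 UMIs).

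**Figure D2:**
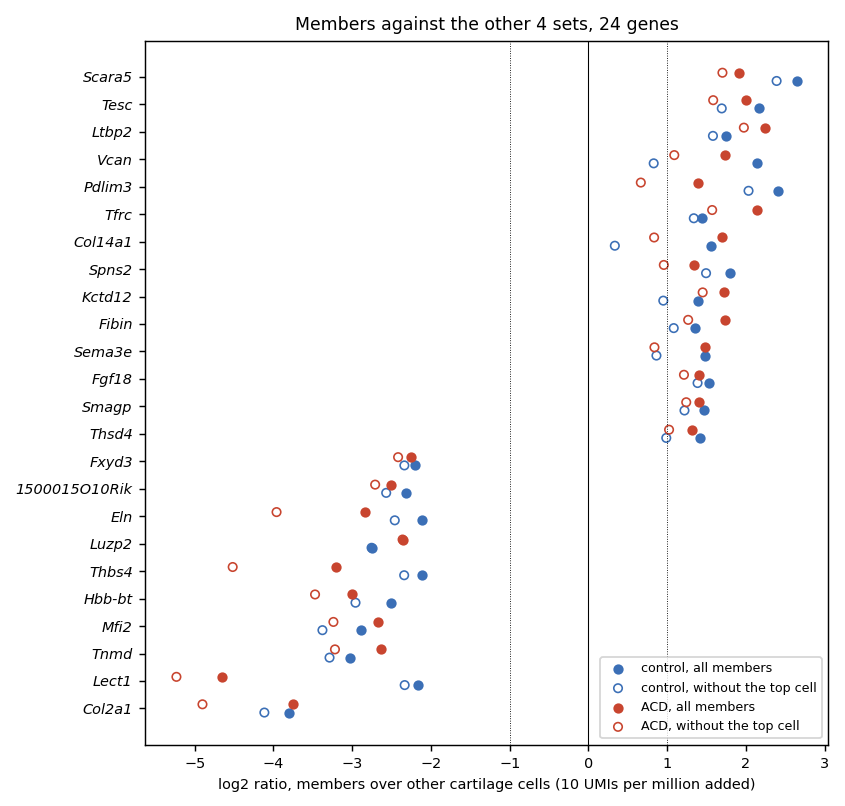
Dot plot of the log2 ratio of Gdf5/Scara3 cells over the other 4 cartilage sets for 14 higher and 10 lower named genes, in control (blue) and ACD (red). Filled points use all cells and open points leave out the cell with the most UMIs of that gene, and dotted lines mark 2-fold. Col14a1 moves from 1.55 to 0.34 in control when 1 cell is left out, whereas Scara5 stays above 2-fold in both libraries.

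The gene lists are described by their counts. Over all 12095 genes, 0.868% were at least 2-fold lower and 0.273% higher in both libraries. Of 25 counted cartilage matrix genes, 10 were lower and 1 (Vcan) was higher by the same rule. Among 23 elastic fiber genes, 4 were lower and 1 higher, and the list summed to 1789 CPM in control and 1360 in ACD against 2992 and 3653. In the BMP and GDF pathway list, 2 of 38 genes were higher and none lower. These were the ligand Bmp4 (log2 differences 1.15 and 1.69) and the secreted BMP antagonist Nbl1 (1.23 and 1.48). Of 38 chondrogenic transcription factor genes, 37 were not past 2-fold in both libraries and 1 was lower, and of 18 vacuolar proton pump genes other than Atp6v0a4 none was past 2-fold. Of 32 genes of scavenger receptors and lipid handling, Scara5 and Clu were higher and 4 were lower, among them Apoe (-1.47 and -1.95) and Apod (-1.96 and -1.19).

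**Figure D3:**
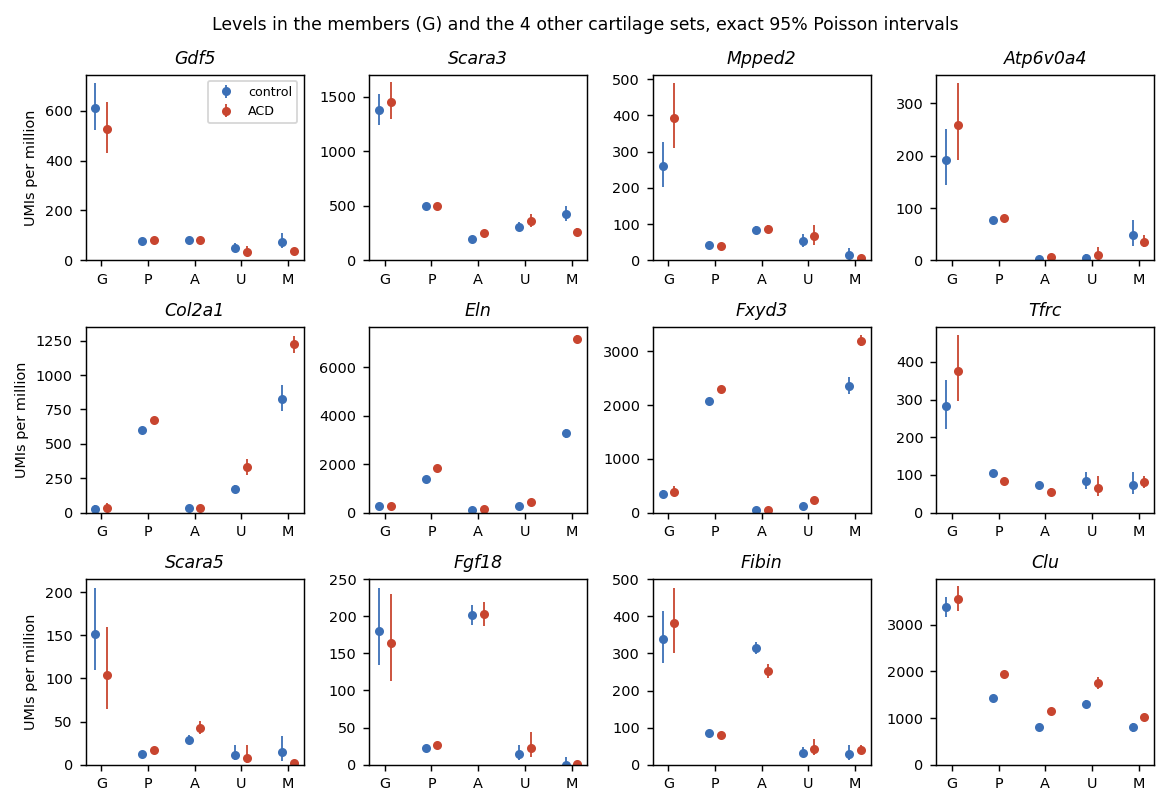
Dot plots of 12 genes in CPM over the 5 cartilage sets (G, Gdf5/Scara3; P, Cytl1/Wif1; A, Angptl7/Cilp2; U, Ucma/Smoc1; M, Acan/Col9a3) in control (blue) and ACD (red), with exact 95% Poisson intervals. The top row shows the 4 genes that chose the G cells. Col2a1 is as low in G as in A, Fgf18 and Fibin are about as high in G as in A, and Tfrc and Scara5 are higher in G than in P.

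Across the 10 groups made by the 5 sets and 2 libraries, the levels most like those of Gdf5 were those of Scai, Tspan13, Acin1, Neu1 and Lbr, with Pearson r between 0.960 and 0.968 over 12118 genes compared. The 10 groups share their libraries, and the G groups are the 2 highest for Gdf5 by choice, so these correlations only list genes that were also high there.

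In ACD, the main difference in the Gdf5/Scara3 cells was in MHC class I. MHC class I heavy chains pair with β2-microglobulin and display peptides to CD8+ T cells, and their genes are known to respond to interferons. Of 1421 genes with at least 50 UMIs over the 85 cells, 18 (1.27%) were at least 2-fold higher in ACD and 19 (1.34%) at least 2-fold lower, and the median log2 ratio was -0.0082. Of the 18 higher genes, 13 stayed past 2-fold without the top cell of each library, and 10 were also past 2-fold in the other cartilage sets. Of the 19 lower genes, 16 stayed past 2-fold without the top cells, and 0 were past 2-fold in the other sets. Counted afresh without the top cells, 17 genes (1.2%) were higher and 22 (1.55%) lower. In the other 4 sets together, 11 of the same 1421 genes (0.774%) were higher and 0 lower.

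H2-D1 (ENSMUSG00000073411, chr17:35262730-35267499, plus strand) ranged from 0 through a median of 7.09 to 26.7 UMIs per 10000 in control cells and from 2.18 through 33.0 to 149 in ACD cells. The ranges overlapped, with the upper quartile at 10.5 in control and the lower quartile at 11.5 in ACD. Summed, H2-D1 stood at 755 (656 to 865) CPM in control and 4471 (4184 to 4772) in ACD, with a log2 ratio of 2.55 (interval of the plain ratio 2.35 to 2.79). H2-K1 (ENSMUSG00000061232, chr17:33996017-34000347, minus strand) had UMIs in 13 of 50 control and 31 of 35 ACD cells, at 75.9 CPM (47.0 to 116) and 898 CPM (772 to 1039), so that it rose by a log2 ratio of 3.4. B2m (ENSMUSG00000060802, chr2:122147686-122153083, plus strand), which encodes β2-microglobulin, was found in 33 of 50 and 33 of 35 cells, at 271 CPM (213 to 340) and 1474 CPM (1311 to 1651), a rise of 2.40 on the log2 scale. H2-Q4 (chr17:35379617-35385290, plus strand) rose from 3 UMIs in 2 cells to 52 UMIs in 18 cells, a log2 ratio of 3.68 (2.95 to 6.90 for the plain ratio). The 3 heavy chain genes are close paralogs, and the mice were outbred ICR while the reads were counted on the reference genome, so how reads were split among H2-D1, H2-K1 and H2-Q4 is uncertain.

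The MHC class I difference stayed past 2-fold without single cells. Without the top cell of each library, the log2 ratios were 2.44 for H2-D1, 3.31 for H2-K1, 2.24 for B2m and 4.05 for H2-Q4. After thinning to 2000 UMIs, 6.12% of control cells (1.28% to 16.9%) and 62.9% of ACD cells (44.9% to 78.5%) had an H2-K1 UMI, and 34.7% (21.7% to 49.6%) and 74.3% (56.7% to 87.5%) had a B2m UMI. The 4 genes were also past 2-fold in each of the other sets. H2-K1 had log2 ratios of 2.82 in Cytl1/Wif1, 3.52 in Angptl7/Cilp2, 4.02 in Ucma/Smoc1 and 2.09 in Acan/Col9a3 cells, and B2m 2.22, 2.31, 3.03 and 2.17. With 1 library per group, whether the Gdf5/Scara3 cells differed from the other sets in this respect was not tested. Of the 22 names on the list of antigen processing and MHC class I, 7 were counted and these 4 were past 2-fold, against 1.27% of all counted genes, while Calr (0.27), Pdia3 (0.17) and Canx (-0.64), chaperones of MHC loading, were within it. The list summed to 2313 CPM in control and 8942 in ACD. Psmb8, an immunoproteasome subunit singled out after its values were seen, was below the 50-UMI minimum, with 0 UMIs in control and 26 UMIs in 11 ACD cells, at least 11.9-fold higher taking 3 UMIs over the control group.

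**Figure D4:**
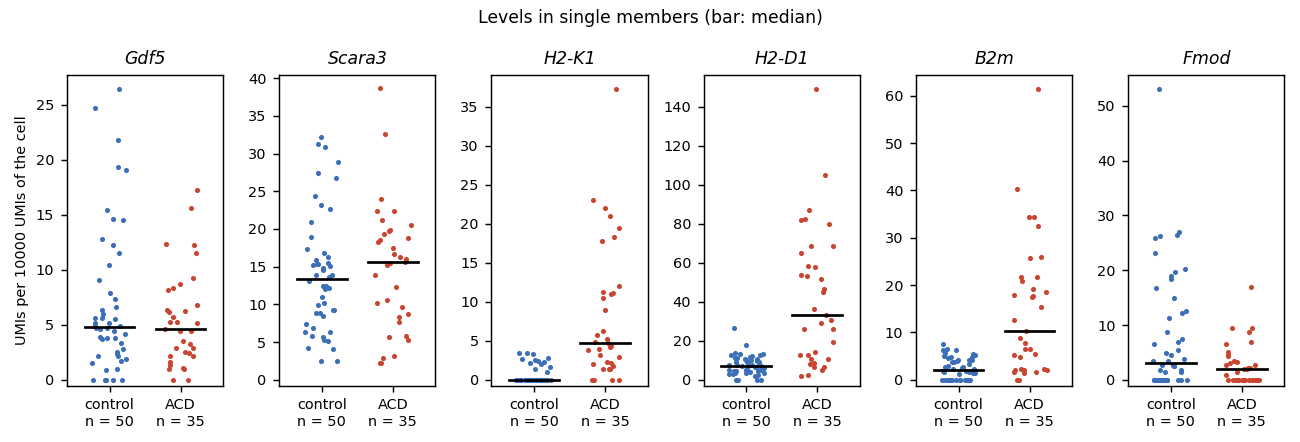
Strip plots of 6 genes in single Gdf5/Scara3 cells, in UMIs per 10000 UMIs of the cell, for 50 control (blue) and 35 ACD (red) cells, with bars at the medians. Gdf5 and Scara3 overlap between the libraries, H2-K1, H2-D1 and B2m reach higher in ACD (medians 4.73, 33.0 and 10.3 against 0, 7.09 and 2.09), and Fmod is lower in ACD (median 1.91 against 3.1).

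The promoters of 3 of the MHC class I genes are given. H2-Q4 also moved with them in all 5 sets, and its promoter was searched but is not printed. They are 300 bases each from RefSeq on GRCm38.p6, from 250 bases before to 50 after the start, written 5′ to 3′ on the strand of the gene. Capitals in B2m (chr2:122147437-122147736, plus strand) mark the core of an interferon-stimulated response element (ISRE), searched with its middle 2 bases free, and capitals in H2-K1 (chr17:34000298-34000597, minus strand) and H2-D1 (chr17:35262844-35263143, plus strand) mark a κB motif of the same 10 letters in both.
B2m: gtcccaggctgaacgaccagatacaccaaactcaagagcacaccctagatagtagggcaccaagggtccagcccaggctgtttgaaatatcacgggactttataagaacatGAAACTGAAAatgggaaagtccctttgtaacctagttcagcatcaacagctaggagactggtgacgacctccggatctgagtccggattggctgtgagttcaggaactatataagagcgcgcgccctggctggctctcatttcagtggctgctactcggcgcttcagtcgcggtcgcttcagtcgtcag
H2-K1: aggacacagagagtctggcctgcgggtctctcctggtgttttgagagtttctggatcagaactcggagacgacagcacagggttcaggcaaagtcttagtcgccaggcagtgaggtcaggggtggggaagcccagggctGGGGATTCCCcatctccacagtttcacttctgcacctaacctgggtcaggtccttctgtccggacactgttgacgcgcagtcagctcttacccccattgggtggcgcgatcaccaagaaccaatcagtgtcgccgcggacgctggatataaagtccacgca
H2-D1: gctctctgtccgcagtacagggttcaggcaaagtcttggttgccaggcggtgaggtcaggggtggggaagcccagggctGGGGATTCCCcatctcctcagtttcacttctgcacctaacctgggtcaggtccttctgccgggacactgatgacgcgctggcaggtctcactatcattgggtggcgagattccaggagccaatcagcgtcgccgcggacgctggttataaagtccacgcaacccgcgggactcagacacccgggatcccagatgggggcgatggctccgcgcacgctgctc
Both strands were searched for the ISRE core, for TTCNNNGAA (a STAT-binding GAS motif) and for the κB motif. The ISRE core was found at -139 from the start in B2m, and the κB motif at -111 in H2-K1 and -171 in H2-D1. The H2-Q4 promoter held 0 matches to any of these motifs. Over 32851 promoters of the same length, 3.44% held the ISRE core, 8.30% held TTCNNNGAA and 0.107% held the κB motif. The ISRE search was for 1 pattern and the κB search for 1 exact sequence. Other forms of the ISRE and of the κB motif were not searched. The lack of a match in H2-K1, H2-D1 or H2-Q4 therefore does not show that such an element is absent. A match describes the letters of the reference and not a bound site.

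Interferon-linked genes outside MHC class I were mostly scarce. Of the 44 names on the interferon response list, 42 are in the annotation and 4 reached 50 UMIs, of which 1 was past 2-fold, where 1.27% of all 1421 counted genes were higher and 1.34% lower. This was Ifitm3, an antiviral membrane protein, which stood at 155 CPM (112 to 209) in control and 536 CPM (440 to 647) in ACD, with a log2 ratio of 1.72 against 1.01 in the other sets. Irf1 (0.22), Ifi27 (0.50) and Socs3 (-0.43) were within 2-fold. The whole list summed to 1626 CPM (1479 to 1783) in control and 2546 (2330 to 2776) in ACD, against 2198 and 3043 in the other sets. Ly6a, a GPI-anchored surface protein, rose from 39.7 to 243 (11 and 49 UMIs, log2 ratio 2.35), and its relative Ly6e from 90.3 to 342 (1.81). MHC class II genes summed to 4 UMIs in control and 42 in ACD. Of these, Cd74, the invariant chain, singled out after its values were seen, had 0 UMIs in control and 25 in 10 ACD cells. The other cartilage sets had 69.1 and 454 CPM for the class II list. Macrophage and DC markers other than Cd74 had 2 UMIs in control and 1 in ACD, both of Cd68 (Lyz2, C1qa and C1qb had none), and T cell markers 13 and 10. The part of free RNA from immune cells in the Cd74 value was not tested.

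**Figure D5:**
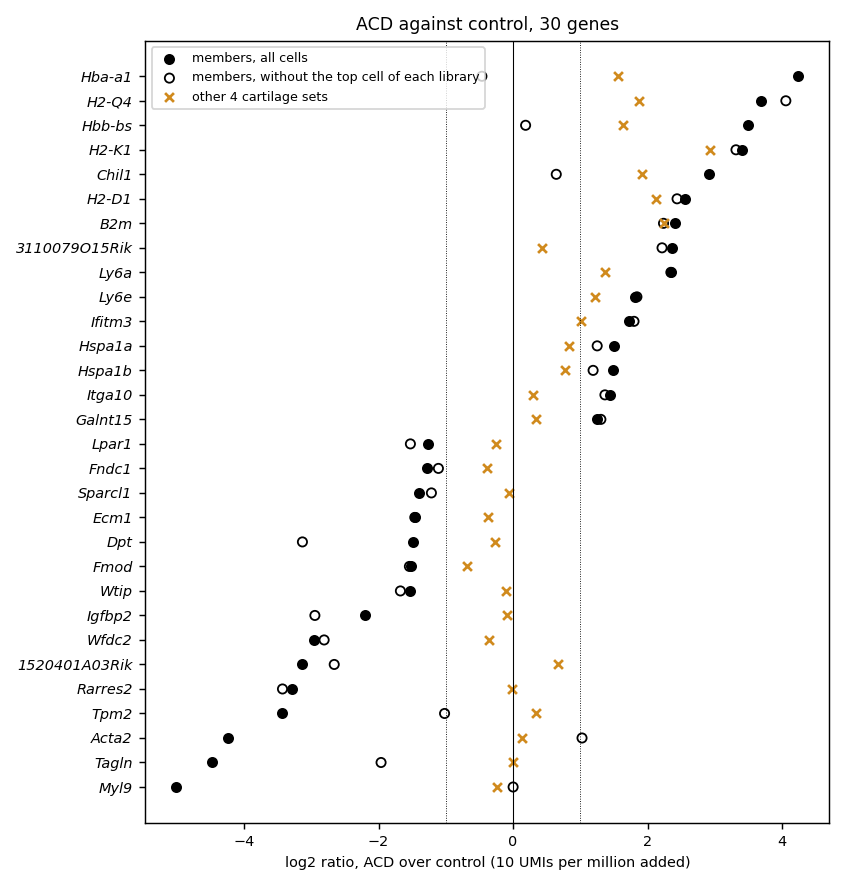
Dot plot of the log2 ratio of ACD over control for the 15 highest and 15 lowest genes in Gdf5/Scara3 cells. Filled points use all cells, open points leave out the cell with the most UMIs of that gene in each library, crosses are the other 4 cartilage sets, and dotted lines mark 2-fold. Hba-a1 moves from 4.24 to -0.46 and Acta2 from -4.24 to 1.02 when single cells are left out, and the 4 MHC class I genes stay above 2. The open Acta2 point compares 0 CPM in control with 10.3 in ACD, with 10 added to each.

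Several extreme ratios came from 1 cell each. One ACD cell held 249 of 256 Hba-a1 and 141 of 152 Hbb-bs UMIs, hemoglobin transcripts that mark red cells. Another ACD cell held 230 of 265 UMIs of Chil1, a chitinase-like secreted protein. One control cell held all 127 Acta2 and 86 Myl9 UMIs, 107 of 120 Tagln UMIs and 76 of 87 Tpm2 UMIs, genes of smooth muscle contraction. Without the top cell of each library the log2 ratios were -0.46 for Hba-a1, 0.19 for Hbb-bs, 0.64 for Chil1, 0 for Myl9, -1.96 for Tagln, 1.02 for Acta2 and -1.02 for Tpm2. The Acta2 value then compares 0 CPM in control with 10.3 in ACD, so it rests on the 10 CPM added. For Tagln, 12 of the remaining control UMIs lay in 1 cell. The control cell with Acta2 had 11728 UMIs, the most of the 50 control cells, 1 Gdf5 UMI and 10 Scara3 UMIs.

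3110079O15Rik, also known as Snorc, a cartilage proteoglycan, rose from 23 UMIs in 10 control cells to 94 UMIs in 10 ACD cells (log2 ratio 2.36, and 0.42 in the other sets), and 2 of the ACD cells held 27 and 26 of those UMIs. Itga10, a collagen-binding integrin subunit of chondrocytes, rose from 61.4 (35.8 to 98.3) to 184 (129 to 253) CPM and was found in 16 of 50 and 19 of 35 cells. Galnt15, a glycosyltransferase, rose from 105 to 263. Hspa1a and Hspa1b, inducible heat-shock proteins, had log2 ratios of 1.51 and 1.48 here and 0.83 and 0.77 in the other sets. One ACD cell held 119 of 318 Hspa1a and 79 of 241 Hspa1b UMIs, and without the top cells the ratios were 1.25 and 1.19. The remaining higher genes were Snhg12 (1.22), Mrpl33 (1.05) and Notum (1.02), a secreted Wnt inhibitor, and without the top cells Mrpl33 (0.94) and Notum (0.99) were under 2-fold.

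Among the lower genes, Fmod, which encodes the collagen-binding proteoglycan fibromodulin, had a median of 3.1 UMIs per 10000 (highest 53.0) in control and 1.91 (highest 16.9) in ACD. Its sum fell from 773 (673 to 884) to 263 (197 to 344) CPM, a log2 ratio of -1.52 against -0.69 in the other sets. Sparcl1, a matricellular protein, was found in 45 of 50 and 28 of 35 cells, and fell from 1351 (1218 to 1496) to 506 (413 to 614), a ratio of -1.40 against -0.06. The control cell with the Acta2 UMIs held 92 of its 374 control UMIs, and another control cell held 79. The Sparcl1 ratio was -1.21 without the top cell of each library, and leaving out both control cells was not tried. Rarres2, which encodes the chemoattractant chemerin, had 51 UMIs in 13 control cells and 2 UMIs in 2 ACD cells, a ratio of -3.29 (-7.30 to -2.29 for the plain ratio) against -0.02 in the other sets. Wfdc2, a secreted protease inhibitor-like protein, had 83 UMIs in 17 cells and 6 in 4, and Igfbp2, an IGF-binding protein, 73 in 11 and 10 in 3. Wtip (-1.53), Dpt (-1.49), Ecm1 (-1.46), Fndc1 (-1.28), Lpar1 (-1.27) and 1520401A03Rik (-3.13, with 65 of 142 control UMIs in 1 cell) were also past 2-fold. These genes were not independent of single cells. The same control cell held the most UMIs of Rarres2 (10 of 51), Igfbp2 (23 of 73), Ecm1 (12 of 54), Fndc1 (17 of 64) and Lpar1 (13 of 70). Its G score led by only 0.0051. In ACD, 1 cell held 11 of 13 Dpt and 7 of 10 Igfbp2 UMIs.

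The higher and the lower genes held differently when the cells were chosen from thinned counts. Of the 15 highest genes, 11 were still past 2-fold, among them H2-D1, H2-K1, B2m and H2-Q4. Of the 15 lowest, 2 were, Rarres2 at -1.54 and Igfbp2 at -2.04. Fmod was then at -0.57, Sparcl1 at -0.04 and Wfdc2 at -0.56.

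Of the 25 gene lists, 6 held a gene past 2-fold in ACD against control, and their counts stand beside 1.27% of all 1421 counted genes higher and 1.34% lower. Besides the lists above, these were cartilage matrix (13 counted, with 3110079O15Rik higher and Fmod lower), the Wnt pathway (4 counted, with Notum higher), immediate-early and heat-shock genes (26 counted, with Hspa1a and Hspa1b higher) and cartilage growth signals (10 counted, with Igfbp2 lower). The cartilage matrix list without that filter summed to 28603 CPM in control and 28105 in ACD. Dcn, also one of the fibroblast markers, held 40.5% of these UMIs over both libraries. Of the 34 genes on the list, 8 are genes of the rule. Of 17 chondrogenic transcription factor genes none was past 2-fold, and Sox9 had a log2 ratio of 0.06. Of 11 BMP and GDF pathway genes other than Gdf5 none was past 2-fold, with a median of -0.20 and a range of -0.87 for Fstl1 to 0.85 for Bambi, a decoy receptor found in 33 of 50 and 31 of 35 cells. The targets Id1 (-0.20) and Id3 (-0.33) were within 2-fold. The type I receptor Bmpr1a had 18 and 16 UMIs, and Bmpr1b, the receptor GDF5 prefers, had 1 UMI in each library. Gdf6, a close relative of Gdf5, had 6 UMIs in control and 0 in ACD. In 3 lists (MHC class II, chemokines and cytokines, acute-phase and antimicrobial) no gene reached 50 UMIs, and in the other 16 lists counted genes were all within 2-fold. Summed, the acute-phase and antimicrobial list stood at 238 CPM (184 to 303) in control and 581 (480 to 696) in ACD. The other cartilage sets had 670 and 1418 for it. Chemokines and cytokines summed to 235 (181 to 299) and 283 (214 to 366).

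Markers of other cell types were few. Keratinocyte markers had 8 UMIs in control and 9 in ACD, endothelial 6 and 0, Schwann cell 3 and 6, melanocyte 2 and 1, neutrophil 0 and 3, NK cell 0 and 1, mast cell 1 and 1, basophil 1 and 0, and skeletal muscle 0 and 1. The smooth muscle and pericyte list had 276 and 5 UMIs, with 260 of them in 1 control cell, and the red cell list 33 and 414, with 393 in 1 ACD cell.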

How the data were processed

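Single cells were released from ear skin with collagenase D and DNase1, and libraries were made with 10x Chromium 3' v2 reagents according to the labels. The authors aligned the reads to mm10 with Cell Ranger (3.1.0 in their processing notes, an earlier release in the methods) and deposited UMI counts per gene and barcode for 27998 genes, with no normalization. The control library held 12895 barcodes and 99037698 UMIs, and the ACD library 13163 and 126566870. Cells were kept (12213 and 11665) if they had over 200 and fewer than 5000 genes, mitochondrial UMIs under 8% of the total and no more than 25000 UMIs, a limit that the methods state in the opposite direction. The authors' cluster labels were not used here.

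Raw UMIs were summed over the cells of a set in each library and scaled to counts per 1000000 (CPM). Log2 ratios have 10 counts per 1000000 added on each side, a gene was counted with at least 50 UMIs, and 2-fold was the limit for a call, because 1 library per group allows no test. Intervals are exact Poisson (sums), Clopper-Pearson (shares) and binomial (plain ratios without the addition), at 95%. A count of 0 was read as up to 3 UMIs. Named are the genes of the rule, the 15 highest and 15 lowest ratios of ACD over control, the 15 highest and 10 lowest of members over other cartilage cells (by the smaller difference of the libraries), genes past 2-fold or among the 4 with most UMIs in each of 25 lists (15 marker lists are given as sums), further list members given as values after they were seen, and the 5 genes most like Gdf5. The members and lists were chosen with earlier results of these data known.

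Doublets were kept, and removing Scrublet calls was an alternative. Other alternatives changed the cell filters, the score limits, the condition on Pdgfra, the depth of scoring, the addition, the minimum count, the scaling and the denominator. Calculations used Python 3.11.15 with numpy 2.4.6, scipy 1.17.1, pandas 2.3.3, scanpy 1.11.5 and matplotlib 3.10.9 and were tested on simulated data. Gene positions are from GENCODE M21 on GRCm38. One gene named by these rules is not reported here.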

Additional observations from a re-analysis of the deposited data

How the results depend on the processing

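No paired analysis was possible because each group was 1 library, and depth limits every value from genes under 50 UMIs. The count of 18 genes at least 2-fold higher in ACD became 30 without the condition on Pdgfra, 69 with a minimum of 20 UMIs and 495 without a minimum. The 19 lower genes became 8 with a minimum G score of 1, 10 with a G score at least 0.3 above the others, 111 with a minimum of 20 UMIs and 713 without one. The 33 genes higher than in other cartilage cells became 79 with the 0.3 lead, 13 with scoring on cells thinned to 2000 UMIs, 144 with 1 count per 1000000 added and 15 without the top cell of each gene, and the 105 lower ones became 367, 68, 1158 and 295. Interferon response genes higher in ACD went from 1 to 3 with a minimum of 20 UMIs and 18 without one, cartilage matrix genes lower in ACD from 1 to 0 with thinned scoring, 2 and 4, and BMP and GDF pathway genes lower in ACD from 0 to 2 without a minimum. Leaving out the top cell was chosen after seeing the data. The cause of these shifts was not tested, beyond the number of genes counted, which was 3549 with a minimum of 20 UMIs and 11752 without one, and the 20 control and 16 ACD cells left by the 0.3 lead. Signs reversed with a minimum G score of 1 for Tagln (0.59) and Acta2 (1.10). With the 0.3 lead they reversed for Chil1 (-1.40), Tagln (0.034), Acta2 (1.05), Vcan (-0.15) and Pdlim3 (-0.14). With thinned scoring they reversed for Hbb-bs (-0.55), Myl9 (1.27), Tagln (0.41), Acta2 (0.011), Tpm2 (0.21), 1520401A03Rik (1.06), Sema3e (-0.25), Spns2 (-0.18) and Thsd4 (-0.40), and without the top cell for Hba-a1 (-0.46) and Acta2 (1.02). Of 825 values of single named genes under the alternatives, 708 moved by less than their counting interval, 99 by more with the same sign, and 18 reversed. Part of the 708 could not move. The minimum count does not enter a ratio, and asking for at least 2 of the 4 G genes removed no cell. Keeping all deposited barcodes or removing Scrublet calls left the same 50 control and 35 ACD cells. Each of these settings left all 55 of its values unmoved. Thinned scoring left 15 of its 55 values unmoved, moved 31 past the interval with the same sign and reversed 9. Without the condition on Pdgfra, 75 control and 66 ACD cells qualified, and 23 of 55 values moved past the interval.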
